A study of Mus musculus with 13 samples.

Results

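MHC class I molecules were described here through 6 genes: 2 classical heavy chains (H2-K1 and H2-D1), 3 nonclassical heavy chains (H2-T22, H2-T23 and H2-M3) and their shared light chain, beta-2 microglobulin (B2m). The genes were chosen by name, with earlier results of these data known, and all 6 were found among the 13222 genes listed in the table and among the 12319 genes tested. The cells were 4T1-Thy1.1, a line derived from the 4T1 mouse mammary carcinoma that carries a Thy1.1 transgene, and every group shared this background. RNA was taken after 48 hours in culture from 4 groups. The control group (3 libraries) received no agent, and the DOX group (4 libraries) received the anthracycline doxorubicin at 200 ng/mL. The IL-17A group (3 libraries) received this cytokine at 25 ng/mL, and the DOX+IL-17A group (3 libraries) received both agents at these doses. The line is a single cell culture model with no immune cells of its own, and the sources used here do not say whether the libraries of a group came from separate experiments, so p-values measure the spread between these libraries.

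A class I molecule consists of a polymorphic heavy chain, B2m and a short peptide, and it presents peptides from inside the cell to CD8 T cells at the cell surface. The classical chains H2-K and H2-D present most peptides. The nonclassical chains are less polymorphic: H2-T23 encodes Qa-1, which presents leader peptides of other class I chains to natural killer receptors, H2-M3 presents formylated peptides, and H2-T22 is a ligand of a subset of gamma delta T cells. Class I genes and B2m are known targets of interferons, of NF-kB and of the transactivator NLRC5, and their promoters carry a conserved arrangement of an NF-kB site, an interferon-stimulated response element and the X and Y boxes. Of the 6 genes, 5 lie on chromosome 17 in the mm10 build, all annotated as protein coding in GENCODE: H2-K1 at chr17:33996017-34000347 (minus strand), H2-D1 at chr17:35262730-35267499 (plus strand), H2-T23 at chr17:36029773-36032855 (minus strand), H2-T22 at chr17:36037128-36042747 (minus strand) and H2-M3 at chr17:37270220-37274484 (plus strand). B2m lies on chromosome 2, at chr2:122147686-122153083 (plus strand).

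The promoters are shown first because these elements recur in them. The sequences are from RefSeq on GRCm38.p6 (the mm10 assembly, of a C57BL/6J mouse, whereas 4T1 comes from BALB/c), are written 5′ to 3′ on the gene's strand, and end before the annotated start site. Capitals mark matches, on either strand, to the 10 base NF-kB consensus, to the core of an interferon-stimulated response element (AANNGAAA), to the X2 type element TGACG or to the Y box ATTGG. Shown are the 4 genes that were called higher with DOX, and H2-T23, whose promoter differed.
H2-K1, chr17:34000354-34000463, minus strand: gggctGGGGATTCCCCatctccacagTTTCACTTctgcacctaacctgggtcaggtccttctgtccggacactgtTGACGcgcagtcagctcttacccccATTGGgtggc
H2-D1, chr17:35262918-35263050, plus strand: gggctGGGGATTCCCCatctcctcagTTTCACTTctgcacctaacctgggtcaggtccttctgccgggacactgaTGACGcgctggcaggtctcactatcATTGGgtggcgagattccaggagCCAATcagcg
B2m, chr2:122147545-122147643, plus strand: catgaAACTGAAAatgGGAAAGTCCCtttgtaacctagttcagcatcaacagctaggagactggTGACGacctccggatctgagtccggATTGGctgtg
H2-T22, chr17:36042755-36042960, minus strand: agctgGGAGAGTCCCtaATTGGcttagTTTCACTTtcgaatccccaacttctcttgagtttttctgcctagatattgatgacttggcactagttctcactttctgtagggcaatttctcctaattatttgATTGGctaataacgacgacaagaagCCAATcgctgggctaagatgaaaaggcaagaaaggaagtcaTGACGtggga
H2-T23, chr17:36032744-36032830, minus strand: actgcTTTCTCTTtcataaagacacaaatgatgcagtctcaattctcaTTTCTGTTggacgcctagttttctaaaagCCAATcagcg

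Within the annotated promoters (250 bases before to 50 after the start site), H2-K1, H2-D1, H2-T22, H2-M3 and B2m held all 4 elements, as did 0.11% of 32851 mouse promoters of the same length. In H2-K1 and H2-D1 the NF-kB and interferon elements lay side by side in nearly the same sequence. In B2m their order was turned round, with the interferon element before the NF-kB element. H2-T22 differed in order as well. Its TGACG match lay nearer the start site than every Y box match, and a Y box match lay between its NF-kB and interferon elements. H2-T23 held the interferon core and the Y box only. In H2-M3 a Y box match overlapped the NF-kB match, and the NF-kB matches on both strands of H2-K1 and H2-D1 overlapped each other. Taken singly, the NF-kB consensus was found in 8.46% of promoters, AANNGAAA in 23.9%, TGACG in 20.8% and ATTGG in 37.4%. A match describes letters in a window and not a site in use, and a missing match says nothing of the factor.

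The measurement was 3′ end RNA sequencing of bulk cultures, in which each transcript gives reads from its 3′ end, so that values were not scaled by transcript length. The deposited values are read counts normalized by the trimmed mean of M values (TMM), without a log. In each library the values rose in steps that correspond to 1 read, from which the read numbers were recovered. Libraries held between 4445592 and 16930600 reads over all listed genes. Counts of 3 reads, taken as the smallest detectable amount, corresponded to values from 0.183 to 0.613. Such counting limits cover counting error only, since reads were not collapsed by molecular identifiers. In bulk samples, fewer cells of a type and less RNA per cell cannot be told apart. Epithelial markers were abundant in every library, with summed values over 8 genes from 924 to 2364, and Thy1 ranged from 63.6 to 179. None of the 4 endothelial markers and 6 of 17 leukocyte markers were listed, Ptprc stayed at or below 3.57, and the leukocyte sum (13.04 to 57.1) came mostly from Cd14 and Csf1r.

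Some libraries stood apart from their group before any class I gene was considered. A principal component of the deviations of all 12319 tested genes from their group means held 39.1% of the variance within groups. The lowest scores on it were those of control 1 (-75.6), IL-17A 5 (-36.1) and DOX+IL-17A 5 (-14.9), and the highest was that of control 3 (48.2). Control 1 and DOX 1 also held muscle and red blood cell transcripts, with muscle sums over 7 genes of 36.9 and 225 against 3.93 to 27.8 in the other libraries. Control 1 had the highest fibroblast marker sum as well, at 143 against 27.9 to 78.1 elsewhere. The results that follow were therefore computed again without the library of lowest score in each group of 3, and without control 1 and DOX 1. The part of these transcripts in the results was not tested.

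B2m was by far the most abundant of the 6 genes. Its normalized value was 423, 684 and 614 in control replicates 1, 3 and 5, and 2054, 2458, 1616 and 1392 in DOX replicates 1 to 4. It was 1924, 1258 and 737 in DOX+IL-17A replicates 2, 3 and 5, and 737, 728 and 570 in IL-17A replicates 2, 3 and 5. All 4 DOX libraries and all DOX+IL-17A libraries lay above the 3 control libraries, whereas the IL-17A libraries overlapped with them. H2-D1, the classical chain of steady level, had a value of 126, 120 and 128 in control, 259, 270, 241 and 260 in DOX, 161, 180 and 148 in DOX+IL-17A and 103, 110 and 172 in IL-17A, in the same order of replicates. Its DOX values lay above every other library in the series. The DOX+IL-17A values fell between those of DOX and control and overlapped with neither.

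H2-K1, the other classical chain, varied far more within groups. Its value was 10.8, 101.4 and 51.0 in control, 235, 283, 214 and 257 in DOX, 178, 111 and 53.7 in DOX+IL-17A and 165, 120 and 26.9 in IL-17A. As with H2-D1, the DOX values lay above those of all other libraries, but the 3 remaining groups overlapped with each other. H2-T22 followed a like course at a lower level, with values of 5.41, 29.0 and 17.3 in control, 58.2, 74.4, 71.6 and 63.5 in DOX, 72.0, 46.1 and 19.5 in DOX+IL-17A and 29.3, 28.6 and 14.4 in IL-17A. Here DOX and DOX+IL-17A overlapped, because DOX+IL-17A replicate 2 was as high as the DOX libraries.

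H2-M3 and H2-T23 were expressed at a low level. H2-M3 had a value of 4.57, 5.30 and 2.12 in control, 4.43, 13.03, 6.71 and 12.2 in DOX, 10.8, 2.88 and 1.997 in DOX+IL-17A and 6.53, 9.43 and 2.54 in IL-17A. H2-T23 had a value of 5.24, 2.01 and 1.65 in control, 3.54, 10.2, 0.699 and 3.93 in DOX, 5.93, 1.99 and 1.06 in DOX+IL-17A and 2.14, 2.67 and 1.39 in IL-17A. For both genes every pair of groups overlapped. These values rested on 18 to 136 reads for H2-M3 and on 5 to 93 for H2-T23, against at least 2501 for B2m and 700 for H2-D1.

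**Figure D1:**
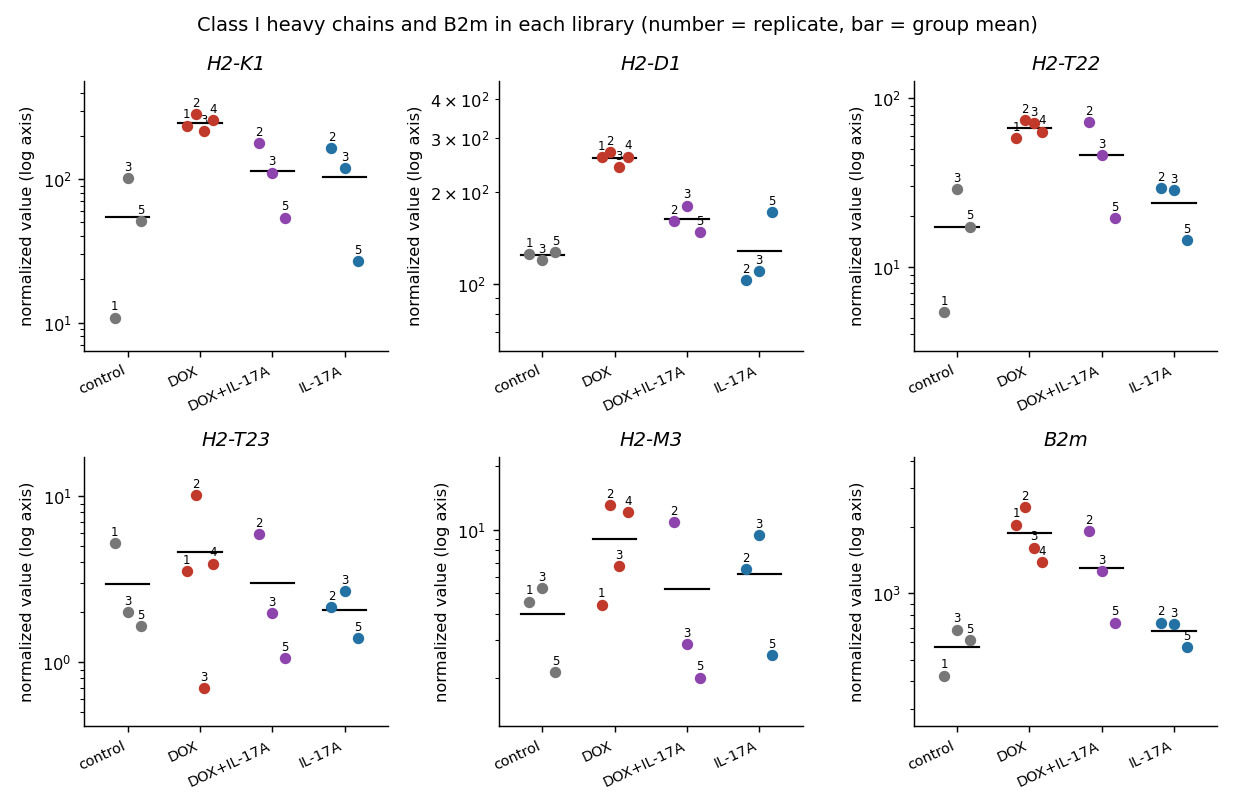
Normalized value (log axis) of each gene in each of the 13 libraries by group; points are libraries numbered by replicate and bars are group means. The 4 DOX libraries lie above all control libraries for H2-K1, H2-D1, H2-T22 and B2m, and control 1 and IL-17A 5 are the lowest libraries for H2-K1.

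The order of the genes by level was the same at the top in each group: B2m was highest in all 13 libraries, with a mean of 574 ± 135 (SD, n = 3) in control and 1880 ± 473 (n = 4) with DOX. H2-D1 followed with a mean of 124 ± 3.83 in control, then H2-K1 with 54.4 ± 45.4, and these neighbours did not overlap in the control libraries. With DOX, H2-D1 (258 ± 11.9) and H2-K1 (247 ± 29.4) overlapped in level. H2-T22 came next, at 17.3 ± 11.8 in control and 66.9 ± 7.45 with DOX. H2-M3 (4.00 ± 1.66 in control, 9.08 ± 4.18 with DOX) and H2-T23 (2.97 ± 1.98 and 4.59 ± 4.00) were lowest. Their ranges overlapped in every group. Within a library H2-M3 was the higher of the pair in all but control 1 (4.57 against 5.24), and this difference was not tested.

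Reads were assigned to these related genes with differing certainty. Of the 75 base windows in the last 500 bases of the annotated coding transcripts, 39.0% of those of H2-T22 also occurred in another gene, namely its near copy H2-T10, and 19.95% of those of H2-T23 occurred elsewhere. The share was 1.81% for H2-K1, and no window of H2-D1, H2-M3 or B2m occurred in another gene. H2-T22 values are therefore uncertain as to which of the 2 genes gave the reads. All these windows came from the reference strain named for the promoters and not from BALB/c, the strain of the cells. The shares thus describe reference sequence only, for H2-K1 and H2-D1 as well. How strain differences affected the alignment and assignment of reads was not tested. The antisense transcript A930015D03Rik spans H2-T23 and part of H2-T22, its own value was 0.426 to 1.65 in control and 2.09 to 3.58 with DOX (0.246 to 4.87 over all libraries), and whether the counting used strand is not given in the sources used here. Patl2, a protein-coding gene on the opposite strand, overlaps B2m over its whole annotated length of 5398 bases. The part of Patl2 in the B2m values was not tested. H2-L, a BALB/c class I gene closely related to H2-D1, was not listed, and its reads cannot be told apart from those of H2-D1 here.

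The first question was whether DOX changed class I transcripts. A gene was called when limma gave an adjusted p under 0.05 and a change of more than 2-fold, and log2 fold changes are on the log2(value + 1) scale. DOX raised 4 of the 6 genes. H2-K1 rose by 2.63 ± 0.64 on the log2 scale (SE; adjusted p = 0.00931), H2-T22 by 2.15 ± 0.47 (adjusted p = 0.00517), B2m by 1.71 ± 0.30 (adjusted p = 0.00119) and H2-D1 by 1.04 ± 0.19 (adjusted p = 0.00149). These log2 changes correspond to folds of 6.21 for H2-K1, 4.44 for H2-T22, 3.26 for B2m and 2.06 for H2-D1. On values without a log, the ratio of the DOX mean to the control mean was 4.55, 3.88, 3.28 and 2.07 in that order. The same rule called 9.15% of all tested genes higher with DOX, so that the share of the 6 genes was well above this background. For 4 of the 6 genes all DOX libraries lay above all control libraries, as did 18.5% of tested genes. The median change of the 6 genes was 1.37, against 0.09 over all tested genes.

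H2-M3 and H2-T23 were not called. The estimate for H2-M3 was 0.97 ± 0.52, with a 95% interval from -0.13 to 2.07 (adjusted p = 0.190). For H2-T23 it was 0.30 ± 0.56, with an interval from -0.89 to 1.49 (adjusted p = 0.728). These intervals include changes as large as that of H2-D1, so that at this depth and spread no difference from the called genes was shown.

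The size of the H2-K1 change depended on control 1. Without this library the log2 fold change was 1.76 (adjusted p = 0.0271), and without control 3 it was 3.32 (adjusted p = 0.00253). The H2-T22 change likewise ranged from 1.53 without control 1 to 2.64 without control 3. H2-D1 moved only between 1.02 and 1.07 when each of the 13 libraries was left out in turn, and B2m between 1.5004 and 1.85. In the fit without the 3 libraries low on the shared component the changes were 1.76 for H2-K1, 1.53 for H2-T22, 1.5004 for B2m and 1.05 for H2-D1, all 4 still called. In the fit without control 1 and DOX 1 they were 1.78, 1.59, 1.45 and 1.05, again all called, the largest adjusted p being 0.0462 for H2-K1. An exact 2-sided permutation test on each of these 4 genes gave p = 0.0571, the smallest value that 4 against 3 libraries can give.

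**Figure D2:**
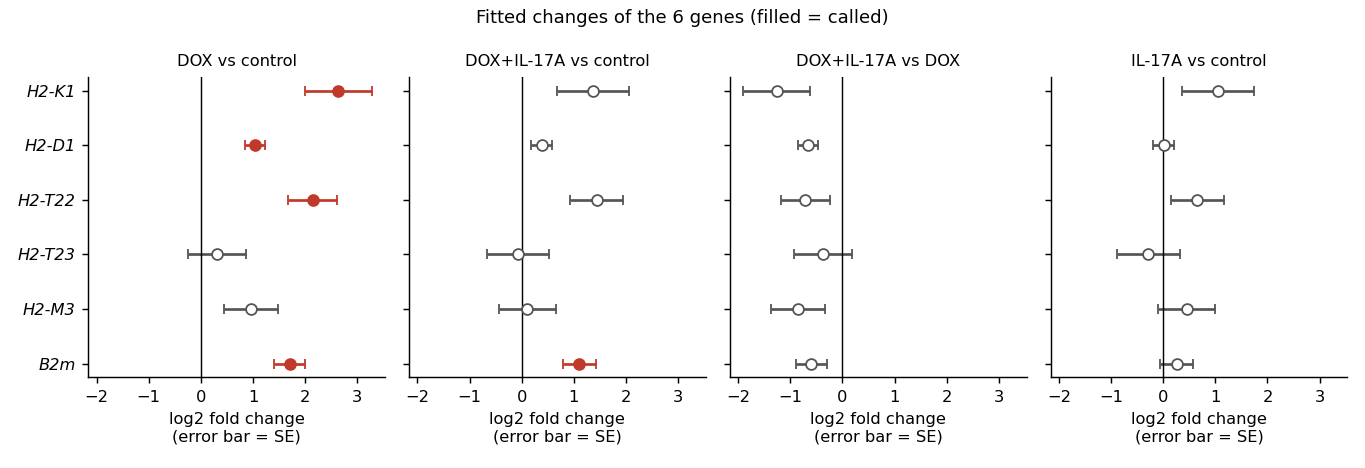
Fitted log2 fold change (points) with its standard error (bars) for each gene in 4 comparisons; filled red points were called by limma. H2-K1, H2-D1, H2-T22 and B2m are filled for DOX against control, B2m alone for DOX+IL-17A against control, and all 6 estimates are below 0 for DOX+IL-17A against DOX.

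The second question was whether the change was still present when IL-17A was given with DOX. Against the same control libraries, DOX+IL-17A raised 1 of the 6 genes, B2m, by 1.11 ± 0.32 (adjusted p = 0.0258). The rule called 6.95% of tested genes higher in this comparison. H2-T22 had an estimate of 1.44 ± 0.50 (adjusted p = 0.0592), H2-K1 of 1.37 ± 0.69 (adjusted p = 0.177) and H2-D1 of 0.38 ± 0.20 (adjusted p = 0.199). H2-M3 was at 0.11 ± 0.55 and H2-T23 at -0.07 ± 0.60. For B2m and H2-D1 the DOX+IL-17A libraries lay above all controls (2 of 6 genes, against 15.6% of tested genes). The median over the 6 genes was 0.75, against 0.04 over all tested genes.

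The B2m call was close to the threshold. It was lost without control 1 (adjusted p = 0.0509), without control 5 (0.0521), without DOX+IL-17A replicate 2 (0.118) and without DOX+IL-17A replicate 3 (0.0754). Without the 3 libraries low on the shared component the fit called B2m (1.26, adjusted p = 7.65e-04) and H2-T22 (1.32, adjusted p = 0.00151), while H2-K1 (0.95, adjusted p = 0.0151) and H2-D1 (0.46, adjusted p = 0.0419) passed the p threshold but not the fold. Without control 1 and DOX 1 none of the 6 was called, B2m was at 0.90 (adjusted p = 0.0655) and H2-K1 at 0.50 (adjusted p = 0.595). The H2-K1 estimate ranged from 0.50 without control 1 to 2.05 without control 3 when each library was left out in turn, and in the latter fit H2-K1 and H2-T22 were called together with B2m.

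Setting DOX+IL-17A against DOX asked whether IL-17A altered the level reached with DOX. All 6 estimates were negative, and none was called: 0 of 6 genes passed with limma, voom with limma, edgeR's quasi-likelihood test or DESeq2. At an unadjusted p under 0.05 limma, edgeR and DESeq2 each counted 1 gene, H2-D1, and voom counted 3 (H2-D1, H2-K1 and H2-M3). Over all tested genes the rule called 0.325% lower and 0.114% higher. H2-D1 was at -0.66 ± 0.19 on the log2 scale, with a 95% interval from -1.06 to -0.26 (unadjusted p = 0.00300, adjusted p = 0.247). H2-K1 was at -1.26 ± 0.64, with an interval from -2.62 to 0.10 (adjusted p = 0.875). For B2m (-0.60, interval -1.23 to 0.03), H2-T22 (-0.71, interval -1.71 to 0.29), H2-M3 (-0.86, interval -1.96 to 0.24) and H2-T23 (-0.38, interval -1.57 to 0.81) the intervals also included 0. The DOX+IL-17A libraries lay below all DOX libraries for H2-K1 and H2-D1 (2 of 6 genes, against 5.61% of tested genes). The median over the 6 genes was -0.69, against -0.03 over all tested genes.

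The adjusted p of H2-D1 ranged from 0.0352 to 0.541 over the alternatives. It was under 0.05 in a fit of only the DOX and DOX+IL-17A libraries (adjusted p = 0.0487) and in the fit without the 3 libraries low on the shared component (-0.59, adjusted p = 0.0352), in both with a change of less than 2-fold. In the latter fit H2-K1 was at -0.81, B2m at -0.24 and H2-T22 at -0.21. Without control 1 and DOX 1, H2-D1 was at -0.66 and H2-K1 at -1.28. In the limma fit of only the DOX and DOX+IL-17A libraries, H2-D1, H2-K1 and H2-T22 had an unadjusted p under 0.05. There H2-K1 was at -1.26 ± 0.29 (unadjusted p = 8.45e-04, adjusted p = 0.0807). The fit of all libraries shares 1 spread over the 4 groups. For H2-K1 the SD of the log2 values was 1.59 in control, 1.37 in IL-17A, 0.86 in DOX+IL-17A and 0.17 in DOX.

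IL-17A alone called none of the 6 genes, by any of the 4 tests and with 0 at an unadjusted p under 0.05. H2-K1 was at 1.05 ± 0.69 with an interval from -0.41 to 2.50, and the estimate ranged from 0.17 without control 1 to 1.83 without IL-17A replicate 5. In the limma fit without the 3 libraries low on the shared component it was 0.95 (unadjusted p = 0.00273, adjusted p = 0.354). H2-D1 was at 0.01 ± 0.20 with an interval from -0.42 to 0.43. B2m was at 0.26 (interval -0.41 to 0.93), H2-T22 at 0.65 (interval -0.41 to 1.72), H2-M3 at 0.45 and H2-T23 at -0.28. Over all tested genes this comparison called 0.00812% higher, a single gene named after its value was seen (Ehf, an epithelial ETS factor), and 0% lower. Against IL-17A alone, DOX+IL-17A called none of the 6 genes with limma, voom, edgeR or DESeq2, where 4.92% of tested genes were called higher. B2m was nearest, at 0.85 ± 0.32 (unadjusted p = 0.0169, adjusted p = 0.0896), and it was the 1 gene with an unadjusted p under 0.05 in each of these tests. For these 2 groups the same-numbered pairs of libraries had correlations of deviations of 0.168, 0.203 and 0.355, though whether the numbers mark pairs is not known. With the replicate number as a block in limma, B2m had the same change with an adjusted p of 0.0462, which passed the p threshold but not the fold. The same held for B2m with DESeq2, where its adjusted p was under 0.05. B2m was called without DOX+IL-17A replicate 5 (1.21) and without the 3 libraries low on the shared component (1.09, adjusted p = 0.00321). In the latter limma fit H2-T22 (0.97, adjusted p = 0.0149) and H2-D1 (0.67, adjusted p = 0.00681) passed the p threshold but not the fold, and H2-K1 was at 2.26e-04. In the fit of all libraries the other estimates were smaller than that of B2m. H2-T22 was at 0.78, H2-D1 at 0.38, H2-K1 at 0.32, H2-T23 at 0.21 and H2-M3 at -0.34.

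Whether the effect of IL-17A differed with and without DOX was tested as an interaction, with an adjusted p under 0.05 as the rule. None of the 6 genes passed with limma, voom, edgeR or DESeq2, and 0% of all tested genes did with limma. The estimates were negative for all 6, at -2.31 ± 0.94 for H2-K1 (unadjusted p = 0.0259), -0.67 ± 0.28 for H2-D1 (unadjusted p = 0.0278), -1.37 for H2-T22, -1.31 for H2-M3, -0.86 for B2m and -0.10 for H2-T23. The adjusted p was 0.901 for the first 5 and 0.989 for H2-T23. Thus 2 genes were under an unadjusted p of 0.05 with limma, voom and edgeR (1 with DESeq2), and neither passed after adjustment. In the limma fit without the 3 libraries low on the shared component, H2-K1 was at -1.76 (unadjusted p = 1.34e-04, adjusted p = 0.0785). H2-D1 was at -0.38 there (unadjusted p = 0.0933), and 8 of all tested genes passed.

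The 2 classical chains differed in how steady they were within a group. The standard deviation of the log2 values around the group means was 1.07 for H2-K1 and 0.20 for H2-D1. Among the 6160 more abundant tested genes, 98.7% varied less than H2-K1, and 11.5% varied less than H2-D1. H2-T22 (0.75) exceeded 94.8% of these genes and B2m (0.44) exceeded 71.9%. The low-level genes H2-M3 and H2-T23, outside this set, had values of 0.77 and 0.84. H2-K1 was thus among the most variable abundant transcripts of the series and H2-D1 among the steadier ones.

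In each group of 3 libraries, the library lowest in H2-K1 had the lowest score on the component of all genes. In DOX these were different libraries, replicate 3 for H2-K1 and replicate 1 for the component score. The correlation of the 13 deviations from group means with that score was 0.92 for H2-K1, 0.88 for H2-T22, 0.58 for B2m and -0.36 for H2-D1, given as a description because the points share libraries and depth, and the genes are part of the component. The 3 libraries named above for their low score, control 1, IL-17A 5 and DOX+IL-17A 5, had 6583757, 13771197 and 16152120 reads on listed genes, control 3 had 16930600, and the part of depth was not tested. Between genes, the deviations of H2-K1 and H2-T22 correlated at 0.93, those of H2-T22 and B2m at 0.81 and those of H2-K1 and B2m at 0.71, while those of H2-K1 and H2-D1 correlated at -0.51 (13 libraries each).

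The ratio of H2-K1 to H2-D1 reads within a library, which is free of the scaling between libraries, showed the same. It was 0.0863, 0.844 and 0.400 in control replicates 1, 3 and 5, 0.909, 1.05, 0.889 and 0.987 in DOX replicates 1 to 4, 1.11, 0.615 and 0.363 in DOX+IL-17A and 1.60, 1.09 and 0.157 in IL-17A. The 4 DOX libraries were close to an even ratio and above all 3 controls, and both other groups spread over ranges that included theirs. The lowest ratios were those of control 1, IL-17A 5 and DOX+IL-17A 5.

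**Figure D3:**
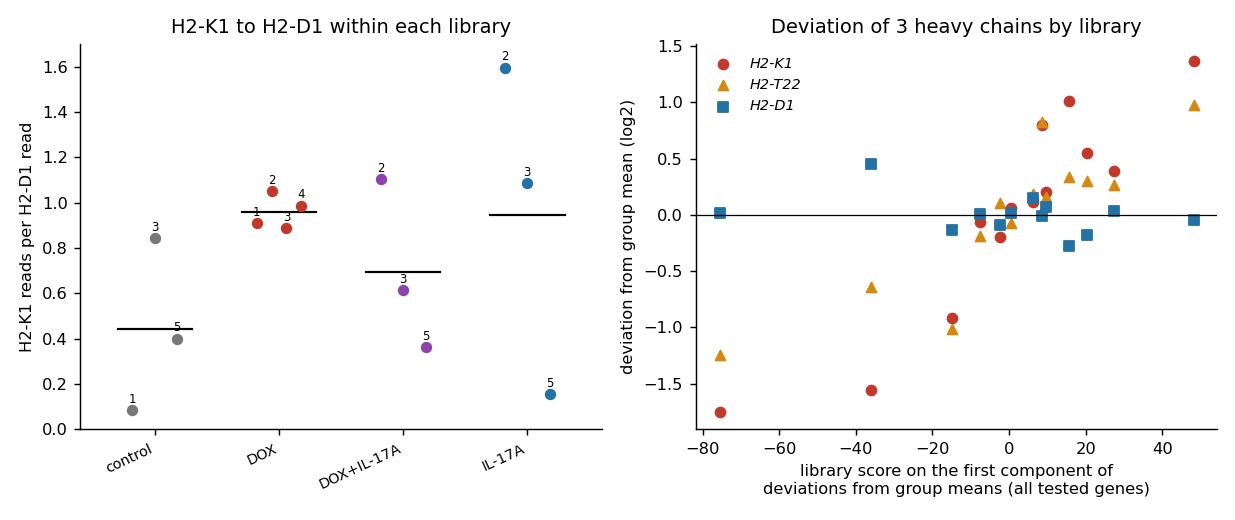
Left, H2-K1 reads per H2-D1 read in each library by group, with group means as bars; right, deviation of H2-K1, H2-T22 and H2-D1 from their group mean (log2 value) against the library's score on the first component of deviations of all tested genes. H2-K1 and H2-T22 rise with the score (correlations of 0.92 and 0.88) and H2-D1 does not (-0.36).

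B2m was measured against its partners in the same way. B2m reads per read of the 5 heavy chains summed lay between 2.33 and 4.50 in all 13 libraries. The ratio was 2.79, 2.65 and 3.07 in control, 3.67, 3.78, 3.02 and 2.33 in DOX, 4.50, 3.68 and 3.28 in DOX+IL-17A and 2.41, 2.69 and 2.63 in IL-17A. All 3 DOX+IL-17A libraries lay above the control and IL-17A libraries and overlapped with DOX. H2-D1 made up less relative to B2m with DOX, with a ratio of 0.143 ± 0.0335 (SD, n = 4) against 0.227 ± 0.0627 (n = 3) in control, and the libraries overlapped. H2-K1 per B2m was 0.0729 to 0.0925 in DOX+IL-17A and 0.115 to 0.185 in DOX, without overlap. Control (0.0256 to 0.148) and IL-17A (0.0472 to 0.224) overlapped with both. How often ratios of other genes separate in this way was not tested. H2-T22 per B2m was 0.0278 ± 0.0148 in control and 0.0371 ± 0.00908 in DOX. H2-M3 and H2-T23 stayed at or under 0.0129 reads per B2m read in every library.

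Over the 13 libraries, the transcripts whose profile was most like that of each gene were sought among the 6160 more abundant tested genes. The 3 nearest to H2-D1 were Rnf213 (r = 0.96), Zfp955b (0.93) and Parp14 (0.93). The nearest to H2-K1 were Ccdc115 (0.97), Gm13363 (0.97) and Rnaset2b (0.96). Dnaja3 (0.96) and Helz2 (0.96) were among the 3 nearest to H2-T22, and Ska3 (0.94), Pnp (0.94) and Sox9 (0.93) to B2m. H2-T23 was nearest to Myc (0.83), Idi1 (0.80) and Washc2 (0.80), and H2-M3 to Tor1aip1 (0.81), Psma1 (0.80) and Cited2 (0.79). For the mean profile of the 6 genes they were Ska3 (0.95), Tor1aip1 (0.95) and Helz2 (0.93). These are descriptions over 13 libraries that share treatments. For the deviations from group means the correlation of H2-K1 was 0.97 with Ccdc115, 0.96 with Gm13363 and 0.96 with Rnaset2b. That of H2-D1 was 0.75 with Rnf213, 0.64 with Zfp955b and 0.49 with Parp14.

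The rest of the class I system was read from lists written with earlier results known. Among other class I and class I-like genes, 17 of 31 were listed and 13 tested, and DOX raised 4: H2-Q7 by 1.80 (adjusted p = 0.00682), H2-T24 by 1.61 (adjusted p = 0.00957), Procr, the endothelial protein C receptor, by 1.27 (adjusted p = 0.00226), and Ulbp1, a ligand of the killer cell receptor NKG2D, by 1.08 (adjusted p = 0.0289). H2-T10, which shares sequence with H2-T22, had an estimate of 1.79 (adjusted p = 0.0565). With DOX+IL-17A against control 2 were called, Procr at 1.23 and H60b, another NKG2D ligand, at 1.104. None was called between DOX+IL-17A and DOX (2 were called lower without control 1 and DOX 1), where H2-K2 was at -1.75 (adjusted p = 0.214), H2-T24 at -1.69 (adjusted p = 0.0976) and H2-Q7 at -1.48 (adjusted p = 0.247). The median of this list was 0.94 for DOX against control and -0.53 for DOX+IL-17A against DOX.

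Of 10 peptide loading genes, DOX raised 3: Tapbpl, a tapasin-related peptide editor, by 1.89 (adjusted p = 0.00202), the chaperone Calr by 1.66 (adjusted p = 7.04e-04), and Tap1, a subunit of the peptide transporter, by 1.55 (adjusted p = 0.00125). Tap1 fell by 1.93 with DOX+IL-17A relative to DOX (adjusted p = 0.00521), from a mean of 50.1 ± 10.9 to 12.5 ± 3.59, while control was at 16.3 ± 2.04. Tap2, the other transporter subunit, was at 1.22 for DOX against control (adjusted p = 0.296). Against control, DOX+IL-17A raised Calr alone in the fit of all libraries (1.28, adjusted p = 0.00687). In this comparison 2 of the 10 were called higher without the 3 libraries low on the shared component, and 2 without control 1 and DOX 1.

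Of 9 tested proteasome genes, DOX raised the 3 catalytic subunits of the immunoproteasome, Psmb9 by 1.74 (adjusted p = 0.0480), Psmb8 by 1.51 (adjusted p = 5.25e-04) and Psmb10 by 1.04 (adjusted p = 0.00789), and the activator subunit Psme2 by 1.27 (adjusted p = 0.0444). The constitutive subunits Psmb5, Psmb6 and Psmb7 were at 0.80, -0.02 and 0.44 and were not called. Psmb8 fell by 1.39 with DOX+IL-17A relative to DOX (adjusted p = 0.0116), where its values of 55.5 to 57.6 lay within the 34.0 to 66.2 of control. DOX+IL-17A raised Psme3 alone against control (1.28, adjusted p = 0.00177). Without the 3 libraries low on the shared component, and without control 1 and DOX 1, 3 of the 9 were called higher with DOX.

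Among 23 genes for factors known to act at class I promoters, DOX raised 5, among them Irf7 by 3.20 (adjusted p = 2.44e-05), Stat2 by 1.83 (adjusted p = 2.54e-04), the NF-kB subunit Relb by 1.38 (adjusted p = 0.00547) and the Y box binding subunit Nfya by 1.07 (adjusted p = 0.0414). Relative to DOX, DOX+IL-17A lowered 3 of these genes, among them Irf7 and Stat2, which fell by 1.88 and 1.33 (adjusted p = 0.0203 and 0.0353). Nlrc5, the class I transactivator, had means of 3.48 in control and 7.26 with DOX and an estimate of 0.96 (adjusted p = 0.125). Irf1 was at 0.41 (adjusted p = 0.178). Irf7 (1.32) and Nfya (1.37) were called for DOX+IL-17A against control.

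Of 7 tested interferon receptor and Janus kinase genes, Ifngr2 alone was called with DOX, at 1.28 (adjusted p = 0.0483), and at 1.44 with DOX+IL-17A (adjusted p = 0.0467). Neither call held without the 3 libraries low on the shared component or without control 1 and DOX 1. The interferon genes of the list (Ifnb1, Ifng, Ifnl2 and Ifnl3) were not listed in the table. Class II genes served as a contrast: 4 of 11 were listed and 2 tested, and the summed value of the 4 was 4.44 to 21.3 in control and 25.7 to 32.8 with DOX. Most of this sum was Cd74, with a DOX mean of 25.7 against 1.39, 1.05 and 0.754 for H2-Aa, H2-Ab1 and H2-Eb1. Cd74, the invariant chain, rose by 1.38 with DOX (adjusted p = 0.0491), and H2-Aa was at 0.20. All 16 interferon response genes in the comparison list rose with DOX (median 2.94), and 9 of them fell with DOX+IL-17A relative to DOX (median -1.84). Isg15, for example, had a mean of 17.9 ± 5.51 in control, 426 ± 74.1 with DOX and 90.2 ± 45.3 with DOX+IL-17A.

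**Figure D4:**
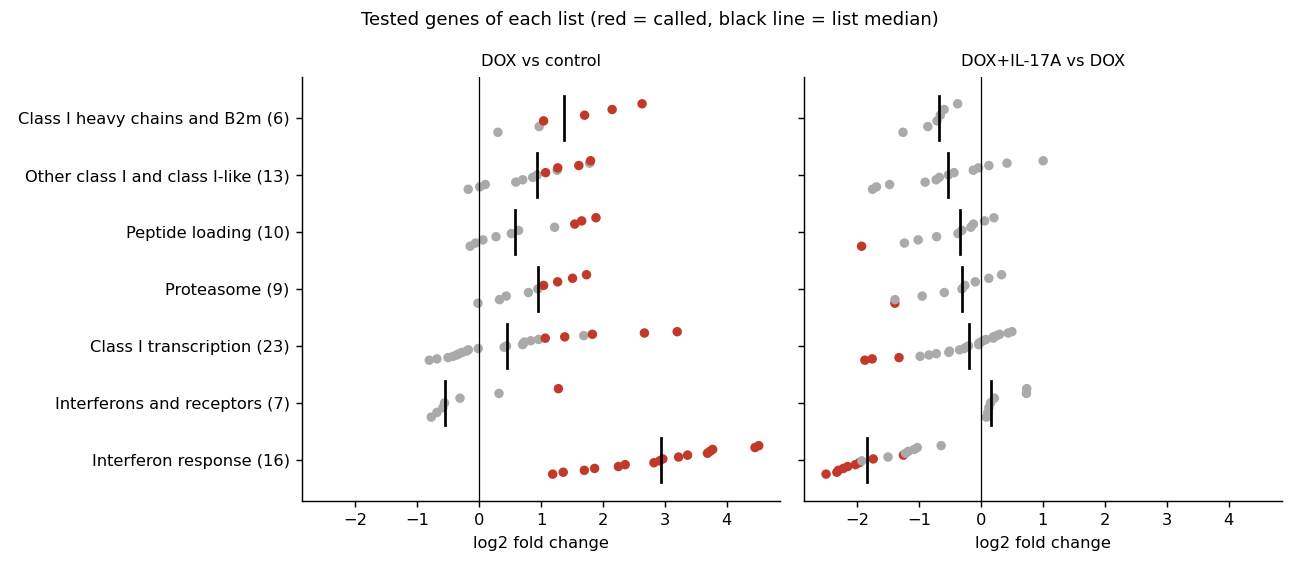
Log2 fold change of every tested gene of each list (number of genes in brackets) for DOX against control and for DOX+IL-17A against DOX; red points were called by limma and black lines are list medians. The class I genes have a median of 1.37 and the interferon response list one of 2.94 with DOX, and on the right red points appear for 9 interferon response genes, Tap1, Psmb8 and 3 transcription factor genes but for no class I heavy chain and not for B2m.

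In DOX+IL-17A relative to DOX, Tap1, Psmb8, 3 transcription factor genes and 9 interferon response genes passed the test and none of the 6 class I genes did. A difference between the 6 genes and those lists was not tested.

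Markers of other cells were set beside the DOX result. The leukocyte sum over the 6 listed markers was 20.2 to 20.47 in control, 25.9 to 53.2 in DOX, 33.5 to 57.1 in DOX+IL-17A and 13.04 to 19.6 in IL-17A. Cd14 rose with DOX (1.80, adjusted p = 0.0102), whereas the defining marker Ptprc was between 0.644 and 1.42 in the DOX libraries. Of 3 tested leukocyte markers 1 was called with DOX (0 without control 1 and DOX 1) and 2 (Cd14 and Ptprc) with DOX+IL-17A. Of 5 fibroblast markers none was called with DOX, where 1 was called lower in each of the fits without several libraries, and Dcn was called higher with DOX+IL-17A (1.302, adjusted p = 0.0256). With DOX no call was made among 7 muscle and 3 red blood cell markers. Of 8 epithelial markers, Epcam and Krt19 fell with DOX, and the epithelial sum was 2019 to 2364 in control and 1079 to 1155 in DOX. The part of these changes in the class I values was not tested.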

How the data were processed

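Per the labels and the study's methods, 3′ mRNA libraries (QuantSeq FWD) were sequenced as single 75 base reads, trimmed with Trimmomatic, aligned to mm10 with STAR and counted per gene with featureCounts, and differential expression was run by the authors in limma after voom. In the deposited file each value is a TMM-normalized signal of 1 gene in 1 library, without counts and not on a log scale; how multi-mapping reads and strand were treated is not given in the sources used here. It had 13223 rows, of which 1 identical repeat was dropped. Dividing each library by its step gave whole reads for 100% of values (tolerance 0.1 read).

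limma with trend was fitted to log2(value + 1) of all 13 libraries with condition as the only factor (9 residual degrees of freedom), over 12319 genes that passed filterByExpr (edgeR) as applied to recovered reads, with Benjamini-Hochberg adjustment over all of them. Called genes had an adjusted p under 0.05 and a change above 2-fold; the interaction used the adjusted p alone. Members, lists and tests were chosen with earlier results of these data known. The rule for other genes named them if called or among the 3 largest changes of their list; Tap2, Nlrc5, Irf1, Psmb5, Psmb6, Psmb7 and Ptprc were named after their values were seen. All comparisons with control share its libraries, and both comparisons with DOX share the DOX libraries. Alternatives were voom with limma, edgeR's quasi-likelihood test and DESeq2 on recovered reads, library size scaling, a pseudocount of 0.1, all listed genes, genes averaging 10 or more reads, only the groups compared, calls by adjusted p alone, a replicate block and omission of each library in turn; the 2 fits without several libraries were added after seeing the data. The labels do not say what replicate numbers mark. Correlations of deviations from group means were 0.168, 0.203 and 0.355 for the 3 same-numbered pairs of DOX+IL-17A and IL-17A. Pairs of these groups with differing numbers reached at most 0.119. No other 2 groups share 3 numbers, and elsewhere a pair with differing numbers, control 1 and IL-17A 5, reached 0.468. Scripts were tested on simulated data. Some genes that met the naming rule are not reported here. Promoters matched 6 of 6 genes in RefSeq; proteins were not used here. Versions were R 4.3.3, limma 3.58.1, edgeR 4.0.16 and DESeq2 1.42.0.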

Additional observations from a re-analysis of the deposited data

How the results depend on the processing

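For DOX against control the 4 calls (H2-K1, H2-D1, H2-T22 and B2m) held under each alternative run, voom, edgeR and DESeq2 included. For DOX+IL-17A against control the number of the 6 genes called moved from 1 to 2 with DESeq2, with library size scaling and without the 3 libraries low on the shared component, and to 0 in the fit of only the groups compared, with the replicate block, and without control 1 and DOX 1; leaving out each library gave 0 to 3, and the cause was not tested. For DOX+IL-17A against IL-17A it moved from 0 to 1 (B2m) with library size scaling and without the 3 libraries, and leaving out each library gave 0 to 1. The counts for the other 3 comparisons did not move. Library size scaling shifted the median of all genes for DOX against control from 0.09 to 0.24 (log2), and no class I call of that comparison was lost.

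Same-numbered libraries of DOX+IL-17A and IL-17A, the only 2 groups that share 3 numbers, had correlations of deviations over 0.1. Some pairs with differing numbers did so too (0.468 for control 1 and IL-17A 5), so whether the numbers mark pairs cannot be told here. Over all comparisons 8 of 13 same-numbered pairs had a correlation of deviations over 0.1 and 7 of 12 libraries correlated best with their own number. With the replicate block, B2m in DOX+IL-17A against control was at 0.89 (adjusted p = 0.0594). Over all genes, DOX+IL-17A against DOX gave 14 higher and 40 lower calls with limma, 22 and 71 with DESeq2, 6 and 8 with the replicate block, 3 and 20 with a pseudocount of 0.1 and 7 and 28 with edgeR, and the interaction gave 0 with limma and 18 with DESeq2. Depth limits H2-T23, which had 5 reads in 1 library, and H2-M3. Dixon's test was run on the 4 DOX libraries only, for 14 values and ratios, and marked none. It says nothing of control 1, IL-17A 5 and DOX+IL-17A 5, which belong to groups of 3 libraries.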
